A study of Saccharomyces cerevisiae with 12 samples.

Results

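The genes described here encode the enzymes, and 1 scaffold protein, that carry squalene to zymosterol in the ergosterol pathway of budding yeast. They are ERG1, ERG7, ERG11, ERG24, ERG25, ERG26, ERG27 and ERG28, and they were chosen by name for their place in the pathway. All 8 were found in each of the 4 deposited tables, among 6078 genes with values in any table and 5803 with values in all of them. All 8 passed the filter on low values in every comparison.

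Ergosterol is the main sterol of the yeast plasma membrane, and the steps from squalene onward are the part of its synthesis that needs molecular oxygen. Erg1 adds oxygen to squalene, Erg7 folds the epoxide into lanosterol, Erg11 removes a methyl group from the ring system and Erg24 reduces the double bond that is left, and Erg25, Erg26 and Erg27 act in turn, held together by Erg28, to remove the pair of methyl groups at C-4. Erg1, Erg11 and Erg25 use oxygen in their reactions, and Erg11 also needs heme and Erg25 iron. Erg1 is the target of terbinafine and Erg11 that of the azole antifungals. Yeast that has no oxygen cannot make ergosterol and takes up sterol from outside, and many of the pathway's genes are under the sterol-responsive activators Upc2 and Ecm22.

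RNA was sequenced from wild-type cells of strain BY4741 and from cells of the same background that lack SET4 (set4Δ::HIS3MX), a gene for a SET-domain protein. Both genotypes were grown in rich medium (YPD) at 30 °C to mid-log phase, either in air or for 18 h in hypoxia in a sealed anaerobe pouch, with 3 libraries in each of the 4 groups. Each genotype is represented by 1 strain, and the labels do not say whether the 3 libraries of a group came from separate cultures, so that p-values measure the spread between these libraries, which may be in part technical. The unit throughout is the normalized read count, which is the number of reads of a gene divided by a size factor for the library. It is relative to the other transcripts of that library, and changes in the total RNA of a cell were not measured.

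The libraries held 18786176 to 27572406 reads in genes, and single genes of the group had 763 to 44826 reads per library. For ERG26 and ERG28 in air, counting error alone was close to the spread between libraries. SET4 was at 161, 217 and 199 normalized read counts in the wild-type libraries in air and at 0, 3.78 and 0 in those of set4Δ, and at 5291, 4898 and 8574 against 21.2, 16.6 and 26.0 in hypoxia, as the labels state. The cell wall genes DAN1 and TIR1, which yeast uses when oxygen is scarce, rose in hypoxia by log2 fold changes of 5.95 (SE 0.27) and 3.99 (SE 0.22) in wild-type cells and of 5.69 (SE 0.26) and 4.44 (SE 0.25) in set4Δ cells (limma, adjusted p of at most 2.2e-06). Hypoxic library 3 of wild type and hypoxic library 3 of set4Δ stood apart from the other hypoxic libraries in the same genes, with a correlation of 0.745 between their deviations across 5558 genes, which are not independent replicates. Wild-type hypoxic library 2 deviated the opposite way in these genes. Its correlation was -0.835 with set4Δ library 3, and 0.78 and 0.732 with set4Δ libraries 1 and 2. DAN1 and TIR1 were highest in library 3 of both genotypes. Results that rest on the hypoxic libraries are therefore given with and without hypoxic library 3 of both genotypes where that matters.

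The genes lie on chromosomes V, VII, VIII, XII and XIV of the R64 reference, where all 8 were matched by name in the RefSeq annotation. Each is a single coding exon, and no annotated gene overlaps any of them. ERG1 (YGR175C) lies on chromosome VII from 846933 to 848423, ERG7 (YHR072W) on VIII from 239098 to 241293, ERG11 (YHR007C) on VIII from 120091 to 121683 and ERG24 (YNL280C) on XIV from 109095 to 110411. ERG25 (YGR060W) lies on VII from 610564 to 611493, ERG26 (YGL001C) on VII from 495453 to 496502, ERG27 (YLR100W) on XII from 341810 to 342853 and ERG28 (YER044C) on V from 237570 to 238016. Coding lengths run from 447 bases for ERG28 to 2196 bases for ERG7.

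The 500 bases before each start codon were searched on both strands for short motifs. These were the sterol regulatory element TCGTATA, which Upc2 and Ecm22 bind, and the related letters TCGTTTAG and TCGTTCAG of anaerobic genes. The others were ATTGTTC, the core of the site of Rox1, a repressor of hypoxic genes, and the Hap1 site, which a heme-dependent activator binds. The sterol regulatory element was found before 3 of the 8 genes and before 420 of 6000 protein-coding genes (7.0%), and the anaerobic type before 3 of 8 and 191 of 6000 (3.18%). The Rox1 core was found before 2 of 8 and 710 of 6000 (11.8%), and the Hap1 site before none of the 8 and 21 of 6000. ERG27 held none of these letters in the window. A match in the letters is a description and not a bound site, and the absence of a match says only that the letters are not in the window. The windows are printed in the direction of the gene, with the motif in capitals, and come from the R64 reference at chrVII:848788-848816 for ERG1, chrVII:610070-610098 and chrVII:610090-610118 for ERG25 and chrV:238277-238305 for ERG28, which carry the sterol regulatory element.
ERG1: gtagcgggcctTCGTATAgctcggccgag
ERG25, first: actgcctccctTCGTATAcgggacacaga
ERG25, second: ggacacagagaTCGTATAcggtaaacgac
ERG28: taacctaatctTATACGAactgaattaaa

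In ERG28 the element is on the opposite strand. It begins 382 bases before the start codon of ERG1, 483 and 463 bases before that of ERG25, and 278 bases before that of ERG28. The anaerobic type was found before ERG7, ERG11 and ERG24, at chrVIII:238905-238934, chrVIII:121799-121828 and chrXIV:110669-110698, in ERG24 on the opposite strand.
ERG7: ttcgtttataaTCGTTTAGgtgaaaagttt
ERG11: gataagcagtaTCGTTCAGcgtgtgtattt
ERG24: tttattttcacCTAAACGAaaatcccgtga

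No gene of the group carried both of these elements. The Rox1 core was found 3 times within 86 bases of the start codon of ERG1, each time on the opposite strand, and once before ERG26. The middle copy of ERG1 at chrVII:848474-848502 and the copy of ERG26 at chrVII:496643-496671 read as follows.
ERG1, Rox1 core: tgtccagtattGAACAATacaggttattt
ERG26, Rox1 core: atagatcgtttATTGTTCtctcgagaaat

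Per kilobase of coding length, the transcript of ERG11 was the most abundant of the group in air and that of ERG7 the least. In wild-type cells in air the level of ERG11 was 13230 ± 878 normalized read counts per kb (SD, n = 3), followed by ERG25 at 11781 ± 604, ERG1 at 5708 ± 253 and ERG27 at 2924 ± 89.7. ERG24 at 2086 ± 178 and ERG28 at 1909 ± 69.8 overlapped in their libraries, and below them came ERG26 at 1642 ± 38.8 and ERG7 at 774 ± 58.5. All other neighbours in this order were separated in all 3 libraries, and the highest level was 17.1 times the lowest. The genes for the enzymes that use oxygen were thus the 3 most abundant of the group, and together ERG11 and ERG25 took 33.0% and 29.4% of the summed level of the 8.

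Hypoxia changed this order. In wild-type cells in hypoxia ERG25 stood at 23830 ± 1952 normalized read counts per kb, ERG1 at 23074 ± 509 and ERG11 at 21021 ± 2349, and each of these overlapped its neighbour. ERG28 moved from the sixth place to the fourth, with 12872 ± 1969, above ERG26 at 6391 ± 697 and ERG27 at 5236 ± 569, which overlapped. ERG24 at 2815 ± 132 and ERG7 at 2157 ± 124 were the lowest. The set4Δ cells had the same order in hypoxia, from ERG25 at 29209 ± 1016 and ERG28 at 18510 ± 1441 in the fourth place to ERG7 at 2232 ± 158. The levels of the genotypes come from tables that were normalized separately.

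**Figure D1:**
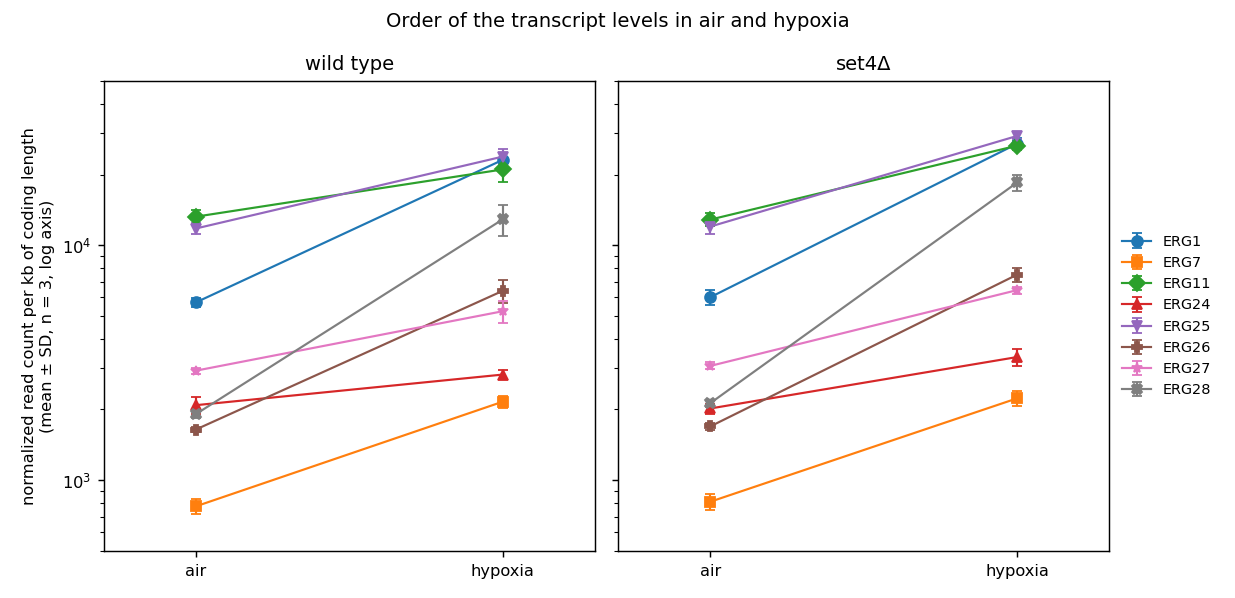
Mean level of each gene per kb of coding length (log axis, normalized read count per kb, error bars SD, n = 3 libraries) in air and in hypoxia, for wild type on the left and set4Δ on the right. Every line rises, ERG28 climbs past ERG27 in both genotypes, and ERG1 reaches the level of ERG11.

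The first comparison asked how each gene of the group responded to hypoxia in wild-type cells. All 8 were higher in hypoxia than in air, in every library, with a rise that ran from 1.35-fold for ERG24 to 6.69-fold for ERG28. The median log2 fold change was 1.25, beside a median of 0.01 over all 6033 genes tested. The share of all genes higher in every library was not counted, but 4877 of the 6033 had an unadjusted p of at most 0.05 in limma, in either direction. A gene was called when its adjusted p in limma was at most 0.05 over all genes and its log2 fold change at least 1. By this rule 5 of the 8 rose, ERG1, ERG7, ERG25, ERG26 and ERG28, where 18.1% of all genes were called higher. By the adjusted p alone all 8 rose, where 40.0% of all genes were higher. None of the 8 fell.

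Among the genes of the oxygen-using enzymes, ERG1 for squalene epoxidase rose most. It had 8829, 8607 and 8094 normalized read counts in the wild-type libraries in air and 34510, 35103 and 33596 in those in hypoxia, a log2 fold change of 2.02 (SE 0.07, adjusted p = 1.3e-07 in limma). The 3 hypoxic libraries lay close together, and the lowest of them was 3.81 times the highest library in air. ERG25, for the C-4 methyl oxidase, had 11533, 10412 and 10922 normalized read counts in air and 20066, 23156 and 23263 in hypoxia. Its log2 fold change of 1.01 (SE 0.08, adjusted p = 1e-05) was just past the fold threshold, and it was 0.98 without wild-type aerobic library 2, without hypoxic library 2 or without hypoxic library 3, so that the count of called genes was then 4.

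ERG11, which encodes the cytochrome that demethylates lanosterol, moved less. Its wild-type libraries had 22684, 20149 and 20391 normalized read counts in air and 29984, 33045 and 37429 in hypoxia. All hypoxic libraries were above all aerobic ones, the lowest by 1.32 times the highest, and the hypoxic libraries differed among themselves by more than those in air. The log2 fold change was 0.66 (SE 0.10, adjusted p = 0.00042), under the fold threshold, and it was 1.10 and past it after quantile normalization.

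Of the genes for steps that use no oxygen, ERG7 for lanosterol synthase had 1841, 1667 and 1590 normalized read counts in air and 4875, 4912 and 4423 in hypoxia. The groups were far apart, with a log2 fold change of 1.48 (SE 0.08, adjusted p = 8e-07). ERG24, for the sterol reductase that acts on the product of Erg11, changed least of the 8. It had 3007, 2682 and 2551 normalized read counts in air and 3774, 3510 and 3838 in hypoxia, and although the groups did not overlap, its log2 fold change was 0.44 (SE 0.08, adjusted p = 0.001) and it was not called.

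The 4 genes of the C-4 demethylation complex spanned nearly the whole range of the group. ERG26, for the dehydrogenase that also removes the carboxyl group, had 1741, 1755 and 1678 normalized read counts in air and 6157, 6435 and 7540 in hypoxia, a log2 fold change of 1.95 (SE 0.08, adjusted p = 3.4e-07). ERG27, for the keto reductase, had 3134, 3074 and 2951 in air and 5198, 5053 and 6147 in hypoxia. Its groups did not overlap, and its log2 fold change of 0.84 (SE 0.08, adjusted p = 3.3e-05) was under the fold threshold. ERG28, for the scaffold, had 829, 842 and 889 in air and 5147, 5351 and 6763 in hypoxia, the largest change of the group with a log2 fold change of 2.74 (SE 0.11, adjusted p = 2.1e-07). By its fold change ERG28 ranked 229 of the 6033 genes tested, counted from the largest rise. Of the complex, 3 of 4 genes were thus called, and of the 3 genes for oxygen-using enzymes 2 were.

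**Figure D2:**
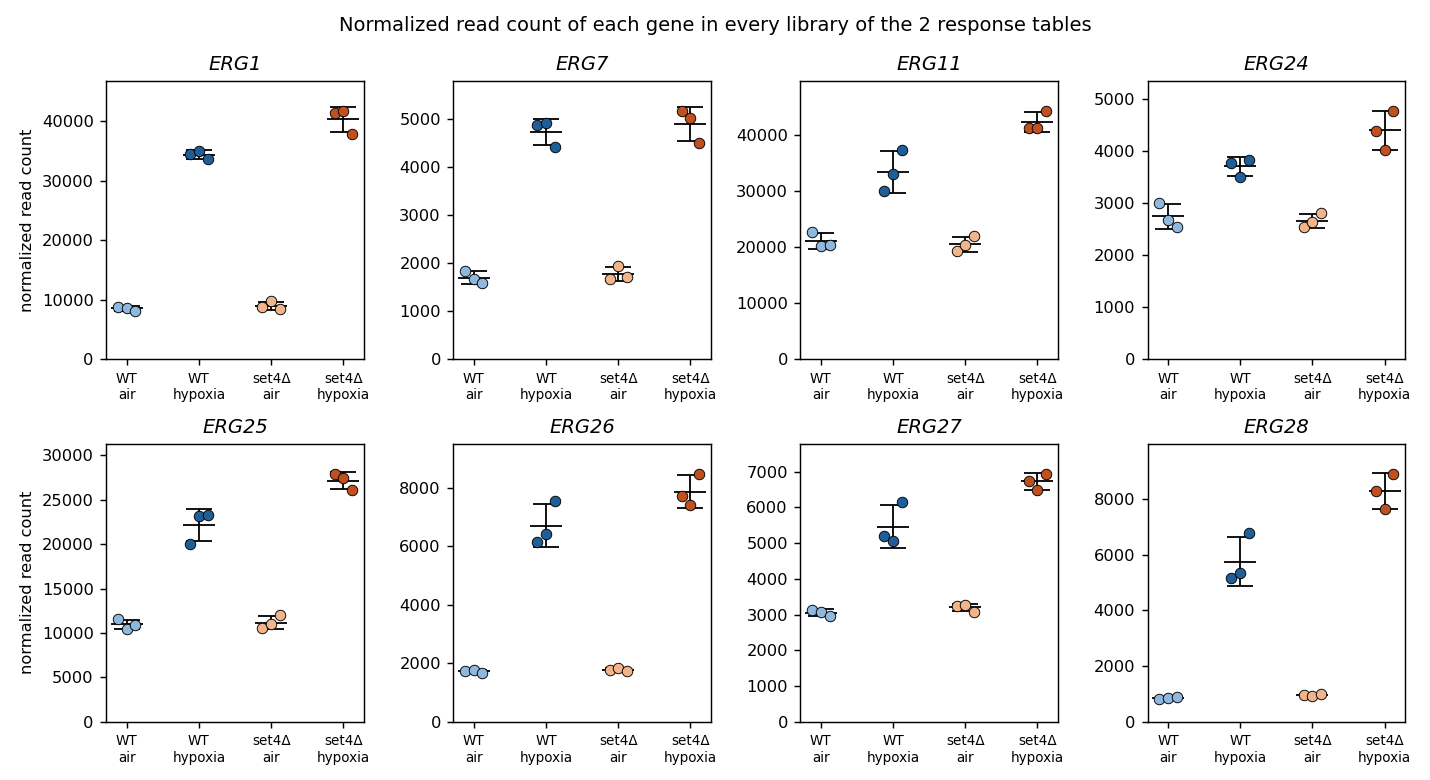
Normalized read count of each gene in every library (points, libraries 1 to 3 from left to right within a group), with the mean and SD of each group of 3 (bars). The hypoxic libraries of both genotypes lie above all aerobic libraries in every panel. As a ratio of read counts, the margin is widest for ERG28 and narrowest for ERG24.

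The same question was asked of set4Δ cells. Here 7 of the 8 genes rose by the rule with the fold threshold, all but ERG24, where 18.6% of all genes were called higher, and all 8 by the adjusted p alone, where 39.6% were. The median log2 fold change of the 8 was 1.37, beside 0.01 over all 6058 genes. The groups did not overlap for any of the 8. The share of all genes without overlap was not counted, but 4887 of the 6058 had an unadjusted p of at most 0.05 in limma, in either direction. Leaving out any 1 library left the count of called genes at 7.

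ERG1 had 8828, 9716 and 8363 normalized read counts in the set4Δ libraries in air and 41389, 41789 and 37883 in hypoxia, a log2 fold change of 2.17 (SE 0.10, adjusted p = 1.1e-06 in limma). ERG11 had 19255, 20306 and 21913 in air and 41318, 41236 and 44350 in hypoxia, with a log2 fold change of 1.05 (SE 0.11, adjusted p = 6.4e-05). Its hypoxic libraries lay closer together than those of wild-type cells. ERG25 had 10520, 11013 and 11991 in air and 27966, 27405 and 26122 in hypoxia, with a log2 fold change of 1.28 (SE 0.10, adjusted p = 9.6e-06).

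ERG7 had 1677, 1947 and 1713 normalized read counts in air and 5175, 5016 and 4510 in hypoxia, with a log2 fold change of 1.46 (SE 0.09). ERG24 had 2542, 2637 and 2802 in air and 4399, 4033 and 4779 in hypoxia, with a log2 fold change of 0.72 (SE 0.08, adjusted p = 9.9e-05), again the smallest of the group. In these 2 genes of oxygen-independent steps the groups were apart in every library.

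Within the complex, ERG26 had 1767, 1847 and 1727 normalized read counts in air and 7716, 7423 and 8494 in hypoxia, with a log2 fold change of 2.14 (SE 0.08). ERG27 had 3253, 3274 and 3076 in air and 6742, 6491 and 6949 in hypoxia, with a log2 fold change of 1.07 (SE 0.07, adjusted p = 4.4e-06). ERG28 again changed most, from 959, 917 and 981 in air to 8276, 7629 and 8917 in hypoxia, an 8.67-fold rise and a log2 fold change of 3.12 (SE 0.08, adjusted p = 6.1e-08). The lowest hypoxic library of ERG28 was 7.77 times the highest library in air. All 4 genes of the complex and all 3 genes of the oxygen-using enzymes were called in set4Δ cells.

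**Figure D3:**
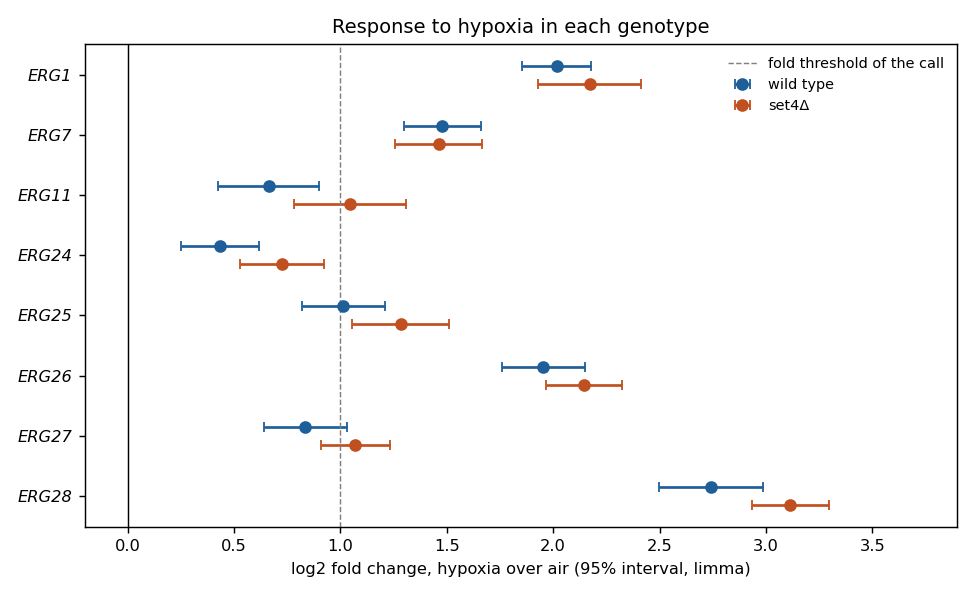
log2 fold change of each gene in hypoxia over air (points) with its 95% interval in limma (bars), for wild type and set4Δ, with the fold threshold of the call as a dashed line. ERG11 and ERG27 lie under the threshold in wild type (0.66 and 0.84) and past it in set4Δ (1.05 and 1.07), and ERG7 is nearly the same in both (1.48 and 1.46).

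A gene past the threshold in 1 genotype and not in the other need not differ between them, so the difference of the responses was tested directly, in a joint fit of all 12 libraries. None of the 8 genes passed at an adjusted p of 0.05 in limma, where 1.34% of all genes passed in either direction, and none passed in edgeR or DESeq2. Of all 6025 genes, edgeR called 53 higher and 26 lower, and DESeq2 110 and 62. At an unadjusted p of 0.05, 5 of the 8 were higher in the set4Δ response in limma, where 5.74% of all genes were. In edgeR 3 and in DESeq2 5 had an unadjusted p of at most 0.05, and the shares of all genes were not counted there. The median difference of the 8 was 0.25 on the log2 scale, beside -0.02 over all 6025 genes. The estimates were positive for 7 of 8, and the responses of the genotypes share no libraries.

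The difference was 0.38 for ERG11 (95% interval 0.07 to 0.69, adjusted p = 0.3 in limma) and 0.37 for ERG28 (0.08 to 0.67, adjusted p = 0.28). It was 0.29 for ERG24 (0.04 to 0.54), 0.27 for ERG25 (0.01 to 0.53) and 0.24 for ERG27 (0.00 to 0.47), with adjusted p-values of 0.34, 0.4 and 0.41. For ERG26 at 0.19, ERG1 at 0.16 and ERG7 at -0.02 the interval held 0, and for ERG7 it ran from -0.28 to 0.24. After quantile normalization the difference of ERG11 was 0.21 and that of ERG1 0.02. Without hypoxic library 3 of wild type alone, ERG28 passed with a difference of 0.50 (adjusted p = 0.032), where 66 of 6025 genes were higher and 33 lower. Without hypoxic library 3 of both genotypes, an alternative chosen after the data were seen, ERG28 (0.44, adjusted p = 0.012) and ERG27 (0.30, adjusted p = 0.05) passed. Of all 6025 genes, 163 were then higher and 120 lower, in place of 55 and 26 with all libraries.

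The hypoxic libraries of the genotypes were also compared with each other, in a table that was normalized over these 6 libraries. All 8 genes had a higher mean in set4Δ cells, with a median log2 difference of 0.25 beside -0.01 over 5875 genes, and none passed the test at an adjusted p of 0.05 in limma, where 1.21% of all genes did. At an unadjusted p of 0.05, 2 of the 8 were higher, ERG27 and ERG28, where 6.59% of all genes were. In edgeR none was called, where 52 of all 5875 genes were higher and 23 lower. In DESeq2 ERG28 alone was called (adjusted p = 0.018), where 160 genes were higher and 85 lower. An unadjusted p of at most 0.05 was found for 3 of the 8 in edgeR and 6 in DESeq2. The shares of all genes at that unadjusted p were not counted in these fits, and the 6.59% of limma does not apply to them. For 6 of the 8, all 3 set4Δ libraries were above all 3 wild-type libraries, which 9.57% of all genes showed. This comparison uses the same hypoxic libraries as the test of the responses and is not separate evidence.

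ERG28 had 5053, 5270 and 6618 normalized read counts in the wild-type libraries of this table and 7981, 7309 and 8695 in those of set4Δ. The lowest set4Δ library was above the highest of wild type, and the log2 difference was 0.51 (SE 0.13, 95% interval 0.20 to 0.82, adjusted p = 0.17 in limma). ERG27 had 5104, 4976 and 6015 in wild type and 6502, 6219 and 6776 in set4Δ, with a difference of 0.28 (SE 0.10, 95% interval 0.04 to 0.52, adjusted p = 0.32). Both genes were highest in library 3 of either genotype.

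ERG11 had 29439, 32545 and 36622 normalized read counts in wild type and 39847, 39506 and 43246 in set4Δ, a log2 difference of 0.32 (SE 0.14, adjusted p = 0.4 in limma). ERG25 had 19702, 22805 and 22761 in wild type and 26970, 26256 and 25472 in set4Δ, a difference of 0.27 (SE 0.12, adjusted p = 0.38). ERG1 had 33883, 34571 and 32872 in wild type and 39916, 40036 and 36940 in set4Δ, a difference of 0.21 (SE 0.12, adjusted p = 0.54). The groups did not overlap for any of these 3 genes of the oxygen-using enzymes, and their 95% intervals ended at 0.65, 0.55 and 0.50. After quantile normalization the difference was 0.12 for ERG11 and 0.07 for ERG1.

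Of the remaining 3 genes, only ERG7 had nearly the same level in both genotypes. ERG24 had 3706, 3457 and 3755 normalized read counts in wild type and 4242, 3863 and 4660 in set4Δ, which did not overlap (log2 difference 0.22, SE 0.09, adjusted p = 0.38 in limma). ERG26 had 6046, 6337 and 7378 in wild type and 7442, 7111 and 8282 in set4Δ, so that wild-type library 3 was above set4Δ library 2 (0.21, SE 0.11, adjusted p = 0.49). ERG7 had 4786, 4838 and 4327 in wild type and 4991, 4806 and 4398 in set4Δ, which overlapped (0.02, SE 0.09, 95% interval -0.19 to 0.24, adjusted p = 0.95).

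**Figure D4:**
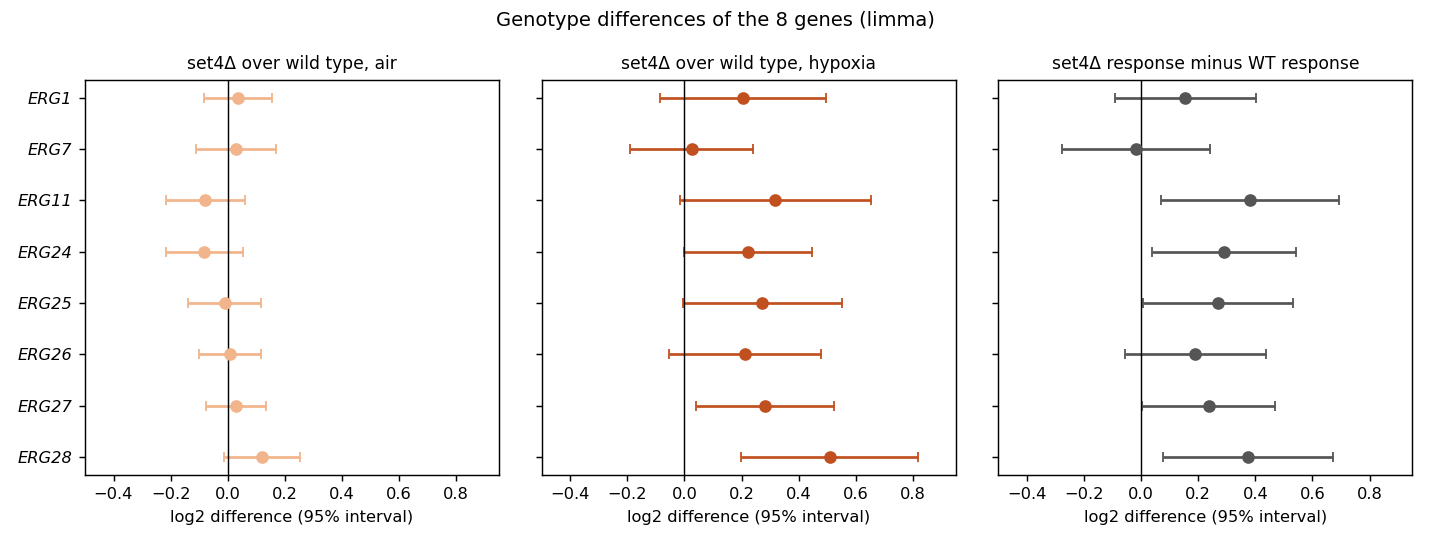
log2 difference of each gene (points) with its 95% interval in limma (bars) between set4Δ and wild type in air (left) and in hypoxia (middle), and between the hypoxia responses of the genotypes (right). In air all intervals hold 0, and in hypoxia all points lie right of 0 with only the intervals of ERG27 and ERG28 clear of it.

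For most of the 8 genes, hypoxic library 3 deviated in the same direction in both genotypes. Library 3 was the highest of the 3 wild-type libraries in ERG11, ERG24, ERG26, ERG27 and ERG28 and the lowest in ERG1 and ERG7, and library 3 of set4Δ was the highest in the same 5 genes and the lowest in ERG1, ERG7 and ERG25. Its deviation from the mean of its genotype had the same sign in both genotypes for 7 of the 8 genes. The share of all genes with the same sign was not counted, but these deviations correlated at 0.745 across 5558 genes. Among the 8, the largest deviation was 0.24 on the log2 scale, for ERG28 in wild type, which is near their median difference between the genotypes. Without library 3 of both genotypes, the difference in hypoxia was 0.57 for ERG28 (SE 0.08, adjusted p = 0.009) and 0.34 for ERG27 (SE 0.07, adjusted p = 0.04), both of which then passed in limma. It was 0.36 for ERG11 (adjusted p = 0.12), 0.33 for ERG25 (0.13), 0.23 for ERG26 (0.13), 0.22 for ERG1 (0.26), 0.18 for ERG24 (0.25) and 0.03 for ERG7 (0.87), and these did not pass. Of all 5874 genes in this fit, 212 were called higher and 176 lower, in place of 48 and 23 of 5875 with all libraries. With 2 libraries in each group this fit has few degrees of freedom, and its libraries were chosen after the data were seen.

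**Figure D5:**
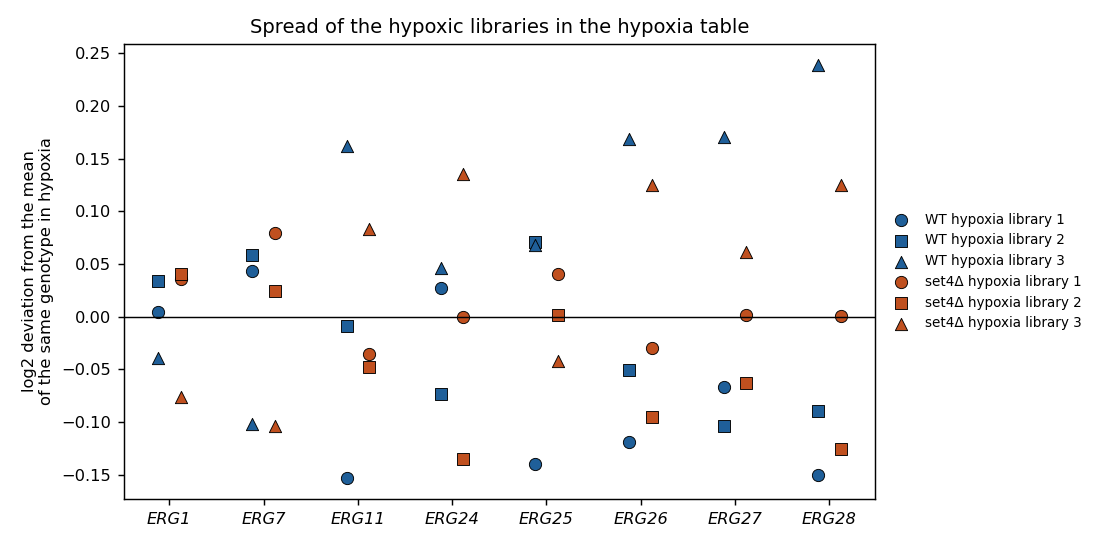
log2 deviation of each hypoxic library from the mean of its own genotype, for each gene, in the table of hypoxic libraries (circles, squares and triangles for libraries 1, 2 and 3). The triangles of both genotypes are above 0 for ERG11, ERG24, ERG26, ERG27 and ERG28 and below 0 for ERG1 and ERG7.

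In air the genotypes were compared in a table of the 6 aerobic libraries. None of the 8 genes was called in limma, edgeR or DESeq2, none had an unadjusted p of at most 0.05 in any of them, and 0.0516% of all genes were called in limma. The log2 differences ran from -0.08 for ERG24 to 0.12 for ERG28 with a median of 0.02, and the libraries of the genotypes overlapped for all 8. ERG28 was at 861, 877 and 931 normalized read counts in wild type and 976, 918 and 1007 in set4Δ (95% interval of the difference -0.01 to 0.25), and ERG11 at 23551, 20989 and 21360 against 19610, 20322 and 22483 (-0.22 to 0.06). Every interval of the 8 lay between -0.22 and 0.25, so that in air a change of more than 1.19-fold in either direction lay outside the interval of every gene.

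The steps before and after this stretch of the pathway, the electron donors and the regulators were read from lists for comparison. Of the 10 genes from acetyl-CoA to squalene, 4 rose in wild-type cells and 5 in set4Δ cells, and none fell, with medians of 0.96 and 0.99, where 18.1% and 18.6% of all genes were called higher. ERG13 for the synthase of hydroxymethylglutaryl-CoA (log2 fold change 1.63, SE 0.06) and ERG8 for phosphomevalonate kinase (1.59, SE 0.07) rose most in wild type. Of the 5 genes from zymosterol to ergosterol, 2 rose and 1 fell in wild-type cells, and 3 rose in set4Δ cells, to be read against the same shares. ERG5, for the desaturase of the sterol side chain, rose by 2.49 (SE 0.11) and 2.65 (SE 0.08) in wild type and set4Δ, ERG6, for the methyltransferase that acts on zymosterol, by 1.42 (SE 0.08) and 1.31 (SE 0.10). ERG4, for the last reductase of the pathway, fell by 1.88 (SE 0.06) in wild type, which no gene of the squalene to zymosterol group did, and its change of -0.42 (SE 0.09) in set4Δ was under the fold threshold.

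Of the 4 genes for electron donors and the heme-binding partner of Erg11, 2 rose in each genotype, against the same 18.1% and 18.6% of all genes. DAP1, for that partner, rose by 2.79 (SE 0.07) in wild type and 2.75 (SE 0.10) in set4Δ, and CYB5, for cytochrome b5, which donates electrons to sterol enzymes, by 2.56 (SE 0.19) and 2.58 (SE 0.10). NCP1, for the reductase that serves Erg1 and Erg11, had log2 fold changes of 0.45 (SE 0.09) and 0.47 (SE 0.09) and was not called. CBR1, the remaining gene of this list, went the other way and was not called either. Its log2 fold changes were -0.32 (SE 0.08, adjusted p = 0.0063 in limma) in wild type and -0.15 (SE 0.08, adjusted p = 0.12) in set4Δ. Of the 6 regulators, 3 rose in wild-type cells and 5 in set4Δ cells, against those shares, and none fell. SUT1, for a regulator of sterol uptake, rose by 3.75 (SE 0.08) and 3.87 (SE 0.08), and UPC2 by 2.69 (SE 0.11) and 2.90 (SE 0.08) in wild type and set4Δ.

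Between the genotypes in hypoxia, 1 of the 5 genes of the later steps and 1 of the 6 regulators passed, where 1.21% of all genes did, and none of the listed genes passed in air, where 0.0516% did. ERG4 was higher in set4Δ cells by 1.34 (SE 0.09, adjusted p = 0.0014 in limma), and ECM22 by 1.14 (SE 0.13, adjusted p = 0.014). Both also passed the test of the difference of the responses, as did 1.34% of all genes, with 1.46 (SE 0.10, adjusted p = 4.7e-05) and 1.15 (SE 0.16, adjusted p = 0.004). UPC2, which like ECM22 encodes an activator of sterol genes, did not pass in either test, with log2 differences of 0.26 (SE 0.14) and 0.22 (SE 0.14).

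Over the 12 libraries, ERG7 and ERG25 lay closest to the median profile of the group, with mean absolute log2 differences of 0.08 and 0.09, and ERG28 lay farthest from it, with 0.81. The 5 genes outside the group that were nearest to that median profile, of 6025 compared, were FRT1, DLD3, SPP1, RAD14 and YLR173W, at 0.03 to 0.06. Within the group, ERG11 and ERG27 were each other's nearest members, with a difference of 0.07, and ERG1 and ERG26 were as well, with 0.09. Among all genes, the nearest member ranked 1 for ERG11, 10 for ERG1, 12 for ERG27 and 13 for ERG26, and 76 to 513 for the other 4, so that all but ERG11 had genes outside the group nearer to them than any member. The measure counts differences in the size of the response as well as in its shape.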

How the data were processed

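RNA of 12 yeast libraries, depleted of rRNA and made with a stranded kit, was read from 4 tables of processed values, each with the 6 libraries of 1 comparison. Before deposit, the authors used Trimmomatic 0.36 for trimming, STAR 2.5.2b for alignment and Subread 1.5.2 for counts per gene. The deposited signal values are read counts divided by DESeq2 size factors fitted per table. Genome build and strand setting were not given in the sources used here. The fold changes, p-values and local FDR that the authors deposited were not used.

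All values of the 24 library columns were whole multiples of 1 step (tolerance 0.05), which gave back the read counts. Libraries were matched between tables by these counts. Some numbers are exchanged between tables, and the numbers of the response tables are used. The third wild-type column for air, with 3 values more than genes, was not aligned with the gene names, and its values were taken from the response table (wild-type library 1), which left out 8 genes. An entry without a gene name was left out of the hypoxia table, and SET4 was not analysed here in that table.

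limma 3.58.1 (R 4.3.3) was fitted with a variance trend to log2(value + 1), so that fold changes are on that scale, keeping genes whose mean reached 10 in 1 of the groups, with Benjamini-Hochberg adjusted p-values over the table and a threshold of 0.05, plus a log2 fold change of 1 for the responses. It was tested on simulated data. edgeR 4.0.16 and DESeq2 1.42.0 on the recovered read counts, other pseudocounts, filters and scalings, a replicate block and leaving out each library were tried. DESeq2 and leaving out both hypoxic libraries 3 were added once values were known. The genes and the lists were chosen with earlier results of these data known. Named are the 8 genes, SET4, DAN1, TIR1, up to 4 called genes of a list with the largest change, and the 5 genes nearest in profile. NCP1, CBR1 and UPC2 are named for comparison with others, after their values were seen. Sequences and positions are from RefSeq R64, found by gene name, since the tables hold no coordinates. Tables were made with Python and pandas.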

Additional observations from a re-analysis of the deposited data

How the results depend on the processing

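Of the counts of called genes, that of the set4Δ response was 7 or 8 under all alternatives, and that of the difference in air 0 under all. In the wild-type response it was 8 by the adjusted p alone, 6 after quantile normalization, with ERG11 added, and 4 to 5 when 1 library was left out. In hypoxia between genotypes the count was 1 with DESeq2, 2 without both hypoxic libraries 3, and 0 whichever single library was left out. For the difference of the responses it was 2 without both hypoxic libraries 3 and 0 to 1 when 1 library was left out, with ERG28 passing without wild-type hypoxic library 3. The replicate numbers were not taken to pair the libraries, since in each comparison at least 1 same-numbered pair correlated at under 0.1 in its deviations. In hypoxia these correlations were 0.0342, 0.732 and 0.745, and in the other comparisons they ran from -0.28 to 0.231. With the number as a replicate block, the count in hypoxia was 1 (ERG28, adjusted p = 0.012), with 238 genes higher and 198 lower of all genes in place of 48 and 23, and no other count of the group changed. DESeq2 called 160 and 85 there, and 212 and 176 were called without both hypoxic libraries 3. For the difference of the responses 55 genes were higher and 26 lower in limma, 110 and 62 in DESeq2, and 163 and 120 without both libraries 3. Leaving out 1 library reversed small differences that were not called: ERG7 in hypoxia (-0.026 to 0.076), in the difference of the responses (-0.077 to 0.049) and in air (-0.029 to 0.083), and in air ERG1 (-0.013 to 0.077), ERG25 (-0.071 to 0.029) and ERG26 (-0.0094 to 0.021). No fold change of the 8 in the responses to hypoxia changed sign under any alternative. Quantile normalization moved the median of all genes by -0.15 in wild-type and -0.14 in set4Δ cells between air and hypoxia, and the median of the 8 was then 1.47 and 1.58. It lowered the differences of ERG11 and ERG1 between genotypes in hypoxia to 0.12 and 0.07, and their differences of the responses to 0.21 and 0.02. With standard errors of 0.09 to 0.14 in hypoxia, a difference of 0.51 (ERG28) did not pass in limma. The cause of these changes was not tested.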
